A study of Mus musculus with 12 samples.

Results

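AMPA receptors carry fast excitatory transmission, and their pore-forming subunits assemble with auxiliary membrane proteins that set their trafficking and gating. The transcripts described here are those of the core subunits Gria1, Gria2, Gria3 and Gria4 and of the auxiliary subunits Gsg1l, Cacng3, Cacng8, Cnih2, Cnih3 and Shisa9, chosen by gene symbol. These 10 genes are 10 of the 48795 genes in the count table, and all 10 passed the expression filter that left 17725 genes for testing. RNA was sequenced from piriform (olfactory) cortex of 12 mice, all C57BL/6 and 12 months old. The Q140 group held 6 mice with 1 knock-in copy of Htt carrying an expanded CAG repeat, a model of Huntington's disease, and 1 wild type copy. The 6 mice of the control group were wild type at Htt, and each genotype had 3 males and 3 females. No drug or other treatment is listed for either group. Every library is a different animal, and the tests below are against animal-to-animal spread. The knock-in allele is present in every cell, and the tissue was sequenced in bulk, so fewer cells of a type and less RNA per cell cannot be told apart.

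Core subunits GluA1 to GluA4, encoded by Gria1 to Gria4, form tetrameric channels whose mix sets kinetics and calcium permeability. The transmembrane AMPA receptor regulatory proteins, among them γ-3 (Cacng3) and γ-8 (Cacng8), bring receptors to the surface and to the synapse and slow their closing. Cornichons (Cnih2, Cnih3) aid export from the endoplasmic reticulum and also slow closing. GSG1L is a claudin-like auxiliary subunit that, unlike the former, slows recovery from desensitization and reduces current, and Shisa9 (CKAMP44) shapes desensitization and short-term plasticity.

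The core subunits are paralogs, so the stretch of coding sequence in which they are most alike is shown first, because it bears on whether reads can be told apart between them. The longest run of bases that any 2 of the 10 genes share in their coding sequence, read from GENCODE transcripts on GRCm38, was 56 bases and is identical in Gria2 and Gria3. The same window is printed 5′ to 3′ on the coding strand for all 4, with capitals at the bases that differ from that shared run.
Gria1 (chr11:57309815-57309870, plus strand): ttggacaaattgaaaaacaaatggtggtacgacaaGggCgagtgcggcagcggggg
Gria2 (chr3:80691333-80691388, minus strand): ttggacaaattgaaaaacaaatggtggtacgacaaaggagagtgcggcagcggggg
Gria3 (chrX:41654856-41654911, plus strand): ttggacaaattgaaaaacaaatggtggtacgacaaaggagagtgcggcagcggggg
Gria4 (chr9:4432786-4432841, minus strand): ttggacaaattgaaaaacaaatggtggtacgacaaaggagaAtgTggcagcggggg
Each window lies within 1 coding exon. In Gria2-201 it covers coding bases 2338 to 2393 of 2652, and in Gria3-202 coding bases 2353 to 2408 of 2667. Over whole transcripts, Gria2 and Gria3 shared 9 different 50-base stretches, Gria2 and Gria4 shared 8, Gria3 and Gria4 shared 4, and every other pair among the 10 genes shared 0. Most of each gene's sequence is thus distinct at that length. How the authors' counting treated a read that matches more than 1 gene is not given in the sources used here.

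The level of Htt itself was compared first. Reads over the repeat were not examined, so the genotype of each animal is as labelled. Wild types had 196 ± 8.15 CPM of Htt (ENSMUSG00000029104) and Q140 animals 151 ± 8.19 CPM (SD, n = 6 each), where CPM are counts scaled to a common library size after TMM normalization. All 6 Q140 animals, at 143 to 164 CPM, lay below the lowest wild type at 180 CPM, and the log2 fold change was -0.37 (SE 0.0428, edgeR adjusted p = 0.000203). Total counts ran from 19587208 to 35198602 reads per animal. Gria2 drew 13762 to 26210 reads per animal and Cnih3, the least counted of the 10 genes, 773 to 1566.

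Of the 10 genes, 3 fell in Q140 animals and 0 rose, by edgeR's quasi-likelihood test with sex as a covariate and a Benjamini-Hochberg adjusted p under 0.05 over all genes tested. They were Gsg1l, Gria3 and Cacng3. Across all genes tested, 6.69% fell (1185 genes) and 4.5% rose (797 genes). Scaled by total counts alone, 822 fell and 1624 rose, and the same 3 of the 10 genes passed, at log2 fold changes of -0.66 for Gsg1l, -0.32 for Gria3 and -0.31 for Cacng3. The median log2 fold change of the 10 genes was -0.102, beside 0.00446 over all genes tested. Of the 10, 8 lay below 0, as did 8639 of the 17725 genes tested. Cnih2 and Cacng8, among those 8, were above 0 with total counts alone (0.02 and 0.00054). The unadjusted edgeR p was under 0.05 for 5 of the 10, and for 4728 of the 17725 genes tested.

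**Figure D1:**
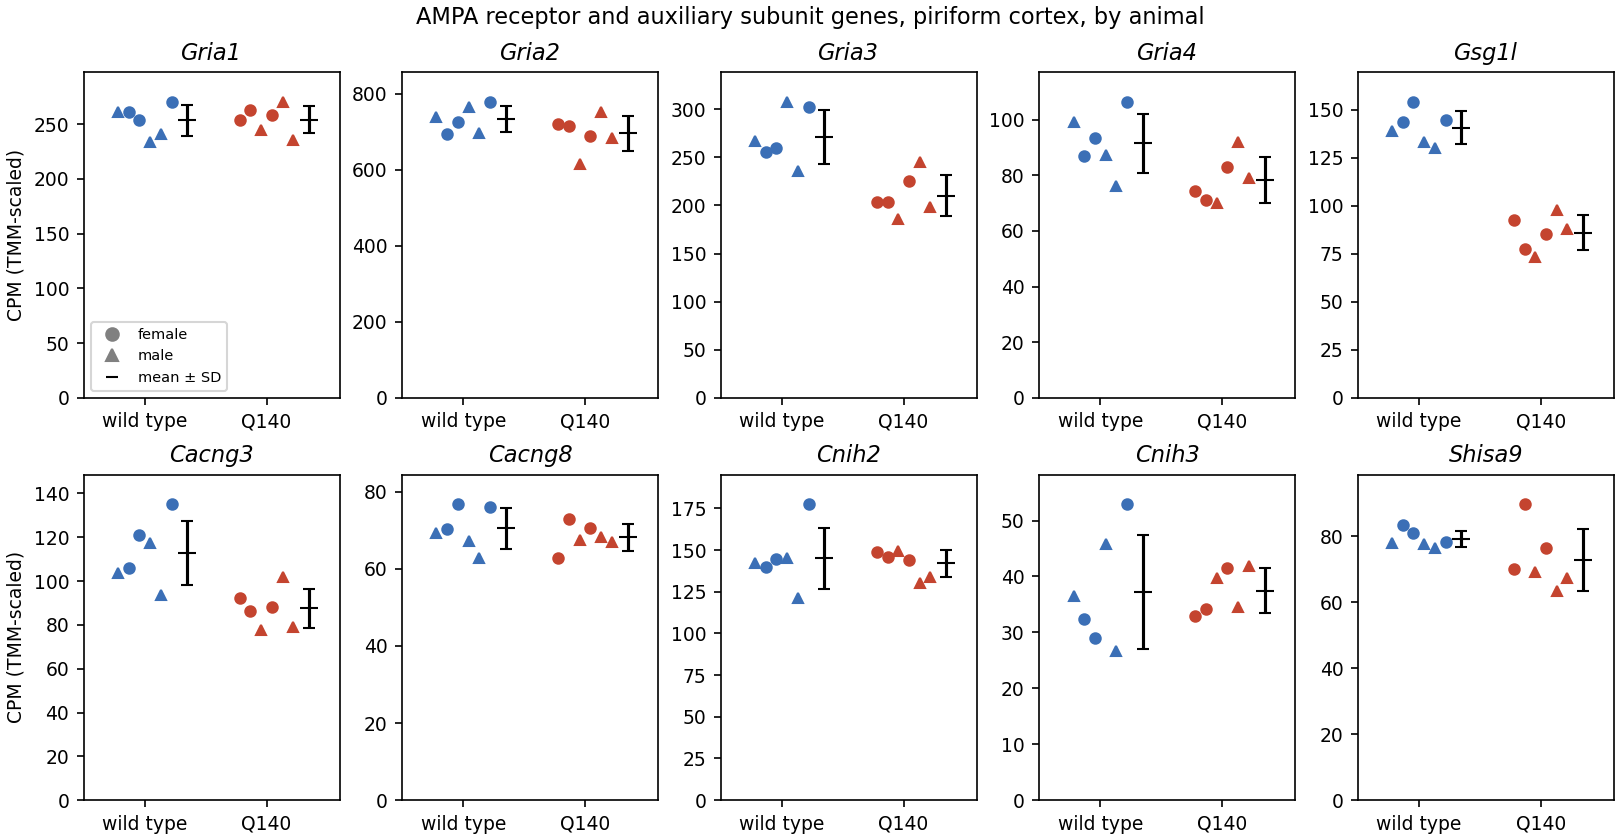
Level of each gene in each animal (y axis, CPM on TMM-scaled library sizes, from 0) for 6 wild type and 6 Q140 mice. Circles are females, triangles are males, and bars give the mean and SD. The Gsg1l groups do not overlap, with wild types at 130 to 154 CPM and Q140 animals at 73.5 to 97.9 CPM.

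Among the core subunits, Gria3 transcripts fell in Q140 cortex and those of Gria1, the GluA1 subunit, did not pass the test. Gria3 (ENSMUSG00000001986, chrX:41400854-41678601, plus strand), which encodes the X-linked GluA3 subunit, had a lowest, median and highest level of 236, 263 and 308 CPM in wild types. In Q140 animals these were 186, 204 and 245 CPM. All but 1 Q140 animal lay below the lowest wild type, so the groups overlapped by that animal, Q140 5 at 245 CPM. The means were 271 ± 28.0 and 210 ± 21.2 CPM (SD, n = 6 each). Gria3 fell by 22.4% (log2 fold change -0.37, SE 0.0762, edgeR adjusted p = 0.00817).

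Gria1 (ENSMUSG00000020524, chr11:57011387-57330244, plus strand) read 234, 257 and 270 CPM as lowest, median and highest wild type. The Q140 values were 235, 256 and 270 CPM, covering almost the same range. Its log2 fold change was 0.0046 (SE 0.0426, edgeR adjusted p = 0.962), with an interval of 2 SE either side from -0.08 to 0.09.

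Gria2 (ENSMUSG00000033981, chr3:80681450-80802835, minus strand), whose GluA2 subunit keeps calcium out of the channel, read 695, 732 and 778 CPM in wild types. In Q140 animals it read 614, 701 and 753 CPM, with 3 animals below the lowest wild type. The log2 fold change of -0.0771 did not pass the test (SE 0.0507, edgeR adjusted p = 0.358, interval -0.18 to 0.02).

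Gria4 (ENSMUSG00000025892, chr9:4417896-4796234, minus strand) encodes the fast GluA4 subunit known from interneurons. It read 76.1, 90.3 and 106 CPM as lowest, median and highest wild type and 70.1, 76.7 and 92.0 CPM in Q140 animals, where 3 lay below the lowest wild type. The log2 fold change was -0.22 (SE 0.0822) and missed the threshold (edgeR adjusted p = 0.0969). It passed in 3 of 28 alternative fits, with adjusted p = 0.0398 without wild type 5, 0.0228 without Q140 5 and 0.0453 with a surrogate variable.

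Gsg1l had the largest fold change of the 10 genes. Gsg1l (ENSMUSG00000046182, chr7:125878420-126082411, minus strand) read 130, 141 and 154 CPM as lowest, median and highest wild type. The Q140 values were 73.5, 86.8 and 97.9 CPM, so every Q140 animal lay below every wild type. Means were 141 ± 8.58 and 85.9 ± 9.15 CPM (SD, n = 6 each). Gsg1l fell by 38.9% (log2 fold change -0.71, SE 0.0655, edgeR adjusted p = 4.89e-05), and ranked 10 by p among the 17725 genes tested. The call held in 27 of 28 alternative fits, with log2 fold changes from -0.76 to -0.63. The exception was a fit on the 5 animals whose name holds a number also borne by an animal of the other genotype, at -0.72 with an adjusted p of 0.334.

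The regulatory proteins divided into 1 that fell and 1 that did not pass. Cacng3 (ENSMUSG00000066189, chr7:122670492-122769393, plus strand), encoding γ-3, read 93.5, 112 and 135 CPM in wild types and 77.6, 87.1 and 102 CPM in Q140 animals. All but 1 Q140 animal lay below the lowest wild type, the exception being Q140 5 at 102 CPM. Cacng3 fell by 22.2% (log2 fold change -0.36, SE 0.0801, edgeR adjusted p = 0.0111). Cacng8 (ENSMUSG00000053395, chr7:3390683-3415648, plus strand), encoding γ-8, read 62.9, 69.9 and 76.8 CPM in wild types and 62.8, 67.9 and 73.0 CPM in Q140 animals. The ranges were nearly the same, and the log2 fold change was -0.0465 (SE 0.0469, edgeR adjusted p = 0.569, interval -0.14 to 0.05).

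Neither cornichon passed the test. Cnih2 (ENSMUSG00000024873, chr19:5092868-5098521, minus strand) read 121, 143 and 178 CPM in wild types and 130, 145 and 150 CPM in Q140 animals. Its log2 fold change was -0.0279 (SE 0.064, edgeR adjusted p = 0.826, interval -0.16 to 0.1). Cnih3 (ENSMUSG00000026514, chr1:181352628-181460641, plus strand) read 26.6, 34.5 and 52.9 CPM in wild types and 33.0, 37.2 and 41.9 CPM in Q140 animals. Its wild types spread widely, from below to above every Q140 animal. The interval of its log2 fold change ran from -0.28 to 0.3 (edgeR adjusted p = 0.976), so changes of either sign within that range remain compatible with the data. The highest wild type for Cnih2, Cnih3, Cacng3, Gria1, Gria2 and Gria4 was the same animal, wild type 6.

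Shisa9 (ENSMUSG00000022494, chr16:11984113-12270902, plus strand) had 1 Q140 animal above every wild type, and the gene passed only with that animal left out. It read 76.6, 78.1 and 83.3 CPM in wild types and 63.3, 69.7 and 89.8 CPM in Q140 animals. In Q140, 5 animals lay below every wild type, of which Q140 4 did so narrowly, at 76.4 CPM against 76.6 CPM. Q140 2, at 89.8 CPM, lay above every wild type. The log2 fold change of -0.13 did not pass (SE 0.0571, edgeR adjusted p = 0.172), and without Q140 2 it was -0.18 with an adjusted p of 0.0188.

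Markers of excitatory neurons moved the same way as the 3 genes that fell. Of 9 such markers, 2 fell (Slc17a7, the vesicular glutamate transporter, and Emx1) and 0 rose, beside 6.69% and 4.5% of all genes tested. Their summed level was 2734 to 3323 CPM for wild types and 2270 to 2712 CPM for Q140. Slc17a7 went from 1823 ± 104 to 1438 ± 128 CPM (log2 -0.34, SE 0.0613, edgeR adjusted p = 0.0033). With the mean of the excitatory markers as a covariate, Gsg1l kept a log2 fold change of -0.63 (edgeR adjusted p = 0.00018). Gria3 was then at -0.24 (adjusted p = 0.0473) and Cacng3 at -0.23 (adjusted p = 0.074). Since that covariate itself differs between the genotypes without overlap, the fit does not separate a change within excitatory neurons from a change in their number.

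Other cell types were read from marker lists too, and their part in the results was not tested unless a value is given. The counts of each list stand beside 6.69% of all genes tested that fell and 4.5% that rose. Of 8 pan-neuronal markers, 3 fell (Snap25, Syt1 and Rbfox3), with sums of 8034 to 9065 CPM in wild types and 6555 to 7899 CPM in Q140 animals. With their mean as a covariate, the log2 fold changes were -0.69 for Gsg1l, -0.48 for Gria3 and -0.53 for Cacng3, and all 3 passed. The sums of these markers also differ between the genotypes without overlap. This fit therefore does not separate a change within neurons from a change in their number either. Of 11 inhibitory neuron markers, 2 fell (Sst and Lhx6) and 0 rose, with overlapping sums of 968 to 1197 and 906 to 1094 CPM. Oligodendrocyte markers rose in 3 of 8 (Mog, Mag and Ermn) and fell in 0, with overlapping sums of 3362 to 4778 CPM in wild types and 3780 to 5427 CPM in Q140 animals. Of 7 precursor markers Olig1 rose and 0 fell, of 6 microglial markers Tmem119 rose and 0 fell, and of 7 astrocyte markers Slc1a2, the glial glutamate transporter, fell and 0 rose. Endothelial markers (0 of 5) and meningeal markers (0 of 7) did not pass in either direction. Of 5 hippocampal markers Wfs1 fell and Prox1 rose. Striatal projection neuron markers, 9 genes of which 0 passed, summed to 315 to 1529 CPM in wild types and 537 to 987 CPM in Q140 animals, so striatal transcripts were present in piriform samples in varying amount. Wild type 6 had the lowest striatal sum, 315 CPM.

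**Figure D2:**
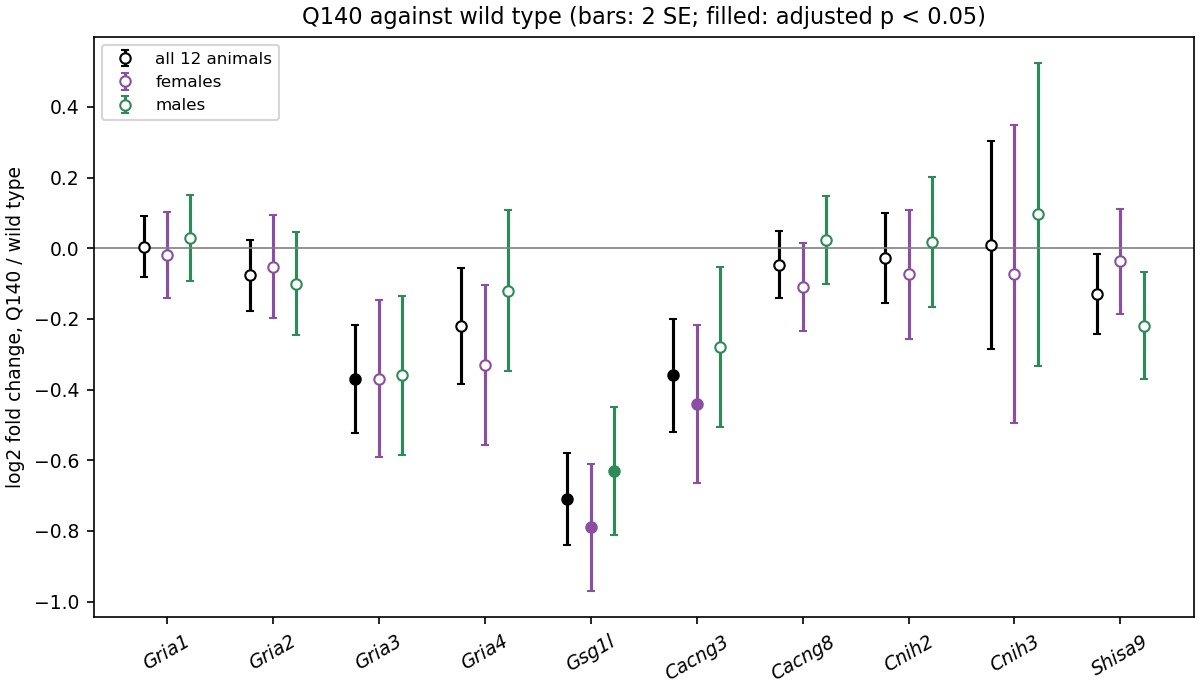
Log2 fold change of Q140 against wild type (y axis) for each gene (x axis) over all 12 animals, in females and in males. Bars are 2 SE, and filled points have an edgeR adjusted p under 0.05. Gsg1l is filled in all 3 comparisons, at -0.71, -0.79 and -0.63.

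Gsg1l was lower in Q140 animals of either sex. In females, 2 of the 10 genes fell, beside 4.21% of all genes tested. They were Gsg1l (log2 -0.79, SE 0.0901, edgeR adjusted p = 0.000897) and Cacng3 (-0.44, SE 0.112, adjusted p = 0.0327). The female Cacng3 call was lost on leaving out any of 5 animals (wild types 3 and 6, Q140 1, 2 and 4), with adjusted p from 0.0717 to 0.13. In males, 1 of the 10 fell, beside 0.959% of all genes, and this was Gsg1l (-0.63, SE 0.0906, adjusted p = 0.00673). Male Cacng3 was at -0.28 (SE 0.113, edgeR adjusted p = 0.236). Gria3 was at -0.37 in females (SE 0.111, adjusted p = 0.0635) and -0.36 in males (SE 0.112, adjusted p = 0.127), passing in neither sex alone by edgeR. DESeq2 called Gria3 in both (adjusted p = 0.0168 in females and 0.0346 in males), as did edgeR with no filter on low counts (0.0128 and 0.0275). Without Q140 5, a male, 3 of the 10 fell in males, with Gria3 at an adjusted p of 0.0253 and Cacng3 at 0.0429.

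Whether the effect of the allele differed by sex was tested directly. This difference passed for 0 of the 10 genes by edgeR and by DESeq2, and by edgeR for 0% of all genes tested. The unadjusted edgeR p was under 0.05 for 0 of the 10, and for 1633 of the 17725 genes tested. On simulated counts this contrast recovered 29.9% of genes changed 1.5-fold, so a difference of that size could be missed. For Gsg1l the male effect minus the female effect was 0.16 on the log2 scale (SE 0.127, edgeR adjusted p = 0.716, interval -0.1 to 0.41). Between males and females, 0 of the 10 genes passed by either tool, beside 0.654% of all genes, with 1 at an unadjusted edgeR p under 0.05, as had 2387 of the 17725 genes tested, a share near that of the 10. That gene was Shisa9, lower in males by a log2 difference of -0.15 (SE 0.0571, edgeR adjusted p = 0.275). X-linked Gria3 differed between the sexes by -0.00961 (SE 0.0761, edgeR adjusted p = 0.974).

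Levels of different genes were compared per length, as the authors' FPKM, a count scaled by gene length and library total. In wild types Cnih2 stood highest at 115 ± 13.4 FPKM, followed by Gria2 at 46.4 ± 2.06 FPKM (SD, n = 6). Next came Gria1 at 41.2 ± 1.98 and Cacng3 at 39.9 ± 4.86 FPKM, whose ranges overlapped, with Gria1 above Cacng3 in 3 of 6 animals. Gsg1l at 35.3 ± 1.81 FPKM overlapped in range with Cacng3 but was below it in each of the 6 animals. Cacng8 (29.5 ± 1.91 FPKM) and Gria3 (27.0 ± 2.74 FPKM) overlapped, as did Shisa9 (15.3 ± 0.439), Gria4 (14.3 ± 1.54) and Cnih3 (13.3 ± 3.6 FPKM). In Q140 animals Gsg1l was at 22.2 ± 2.43 FPKM, Gria3 at 21.7 ± 2.25 and Cacng3 at 32.0 ± 3.28 FPKM. The length implied by the FPKM equalled that of all merged GENCODE exons for 8 of the 10 genes, 15548 bases for Gria2. It was 1237 against 1369 bases for Cnih2 and 5099 against 5242 bases for Shisa9. The FPKM of a gene thus depends on its annotated exon length, and which of its transcripts were expressed was not examined.

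**Figure D3:**
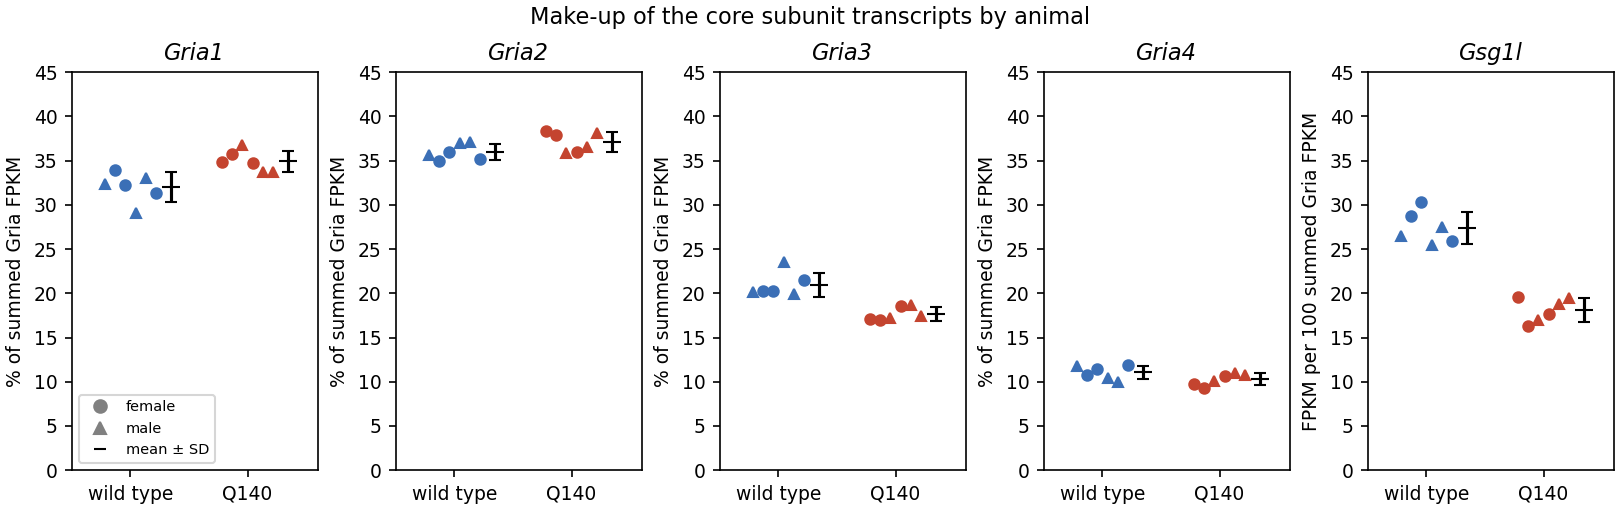
Percent of the summed FPKM of Gria1 to Gria4 taken by each core subunit (first 4 panels, y axis) and FPKM of Gsg1l per 100 of that sum (last panel), by animal. Bars give the mean and SD over 6 animals. The Gria3 share was 19.9 to 23.5% in wild types and 17 to 18.7% in Q140 animals.

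The make-up of core subunit transcripts shifted away from Gria3. Its share of the summed Gria FPKM was 21.0 ± 1.37% in wild types and 17.7 ± 0.786% in Q140 animals (SD, n = 6 each), with no overlap. The share of Gria1 was 32.0 ± 1.66% and 34.9 ± 1.23%, overlapping between 33.7% and 33.9%. Without the length weighting, as shares of summed Gria CPM, Gria1 was at 18.8 ± 1.13% and 20.6 ± 0.841%, so its difference went from 2.92 to 1.75 percentage points. The Gria2 difference went from 1.12 to 1.8 points, and that of Gria3 from -3.28 to -3.1 points, again without overlap (18.9 to 22.1% and 16.2 to 18.0%). Shares of Gria2 (36.0 ± 0.918% and 37.1 ± 1.1%) and Gria4 (11.0 ± 0.764% and 10.3 ± 0.672%) overlapped. The sum itself was 129 ± 6.28 FPKM in wild types and 122 ± 7.8 FPKM in Q140 animals, also overlapping. Shares are not independent, since a lower Gria3 raises the others, and no test was made on them.

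Per 100 FPKM of summed core subunits there were 27.4 ± 1.81 FPKM of Gsg1l in wild types (25.5 to 30.3) and 18.2 ± 1.35 in Q140 animals (16.3 to 19.6). For Cacng3 the ratio was 30.9 ± 2.73 (27.9 to 34.2) and 26.1 ± 1.2 (24.7 to 27.7), without overlap. In CPM, which does not weight genes by length, the Cacng3 groups met, at 7.48 to 9.27 in wild types and 6.61 to 7.49 in Q140 animals, and those of Gsg1l stayed apart, at 9.56 to 11.6 and 6.2 to 7.41. The ratio of Cacng8 was 22.9 ± 1.31 and 24.2 ± 1.76, that of Cnih2 89.2 ± 6.47 and 95.8 ± 9.89, that of Cnih3 10.2 ± 2.3 and 11.4 ± 1.69, and that of Shisa9 11.9 ± 0.757 and 11.9 ± 1.68. These last 4 overlapped between the genotypes.

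**Figure D4:**
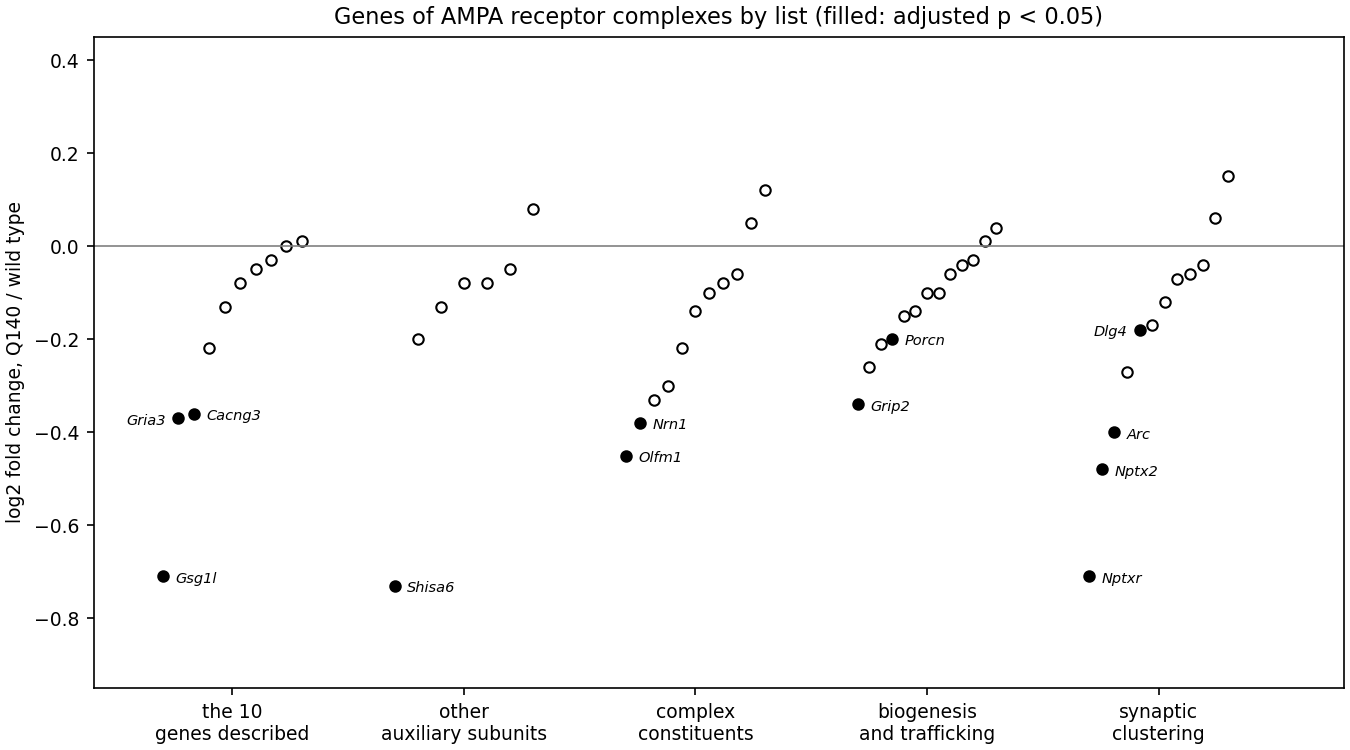
Log2 fold change of Q140 against wild type (y axis) of each tested gene in 5 groups of genes of the AMPA receptor pathway (x axis). Filled points have an edgeR adjusted p under 0.05 and carry the gene's symbol. All 12 called genes lie below 0, from Shisa6 at -0.73 to Dlg4 at -0.18. Over all genes tested, 6.69% fell and 4.5% rose.

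Genes that act with these receptors were grouped by their role. Of 7 other auxiliary subunits, 1 fell and 0 rose, beside 6.69% and 4.5% of all genes tested. Their median log2 fold change was -0.0814. The gene that fell was Shisa6, which slows desensitization, from 15.4 ± 4.8 to 9.21 ± 1.37 CPM (log2 -0.73, SE 0.177, edgeR adjusted p = 0.0176). Cacng2 (stargazin), at 64.9 ± 5.91 and 62.8 ± 6.17 CPM, and Cacng7, at 349 ± 25.9 and 331 ± 38.1 CPM, did not pass.

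Of 11 further constituents of the native complexes, 2 fell and 0 rose, beside 6.69% and 4.5% of all genes tested, with a median of -0.144. Olfm1 (noelin 1), a secreted protein, went from 1424 ± 107 to 1043 ± 82.3 CPM (log2 -0.45, SE 0.0617, edgeR adjusted p = 0.000653). Nrn1 (neuritin) went from 255 ± 31.7 to 196 ± 13.3 CPM (-0.38, SE 0.0716, adjusted p = 0.00483).

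In biogenesis and trafficking, 2 of 13 genes fell and 0 rose, beside 6.69% and 4.5% of all genes tested, with a median of -0.101. Porcn, of the assembly machinery in the endoplasmic reticulum, was at -0.2 (SE 0.0413, edgeR adjusted p = 0.0083), and Grip2, a scaffold that binds GluA2 and GluA3, at -0.34 (SE 0.0917, adjusted p = 0.03).

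Among 12 entries for synaptic clustering, which include Dlg2 under 2 identifiers, 4 fell and 0 rose, with a median of -0.142. Over all genes tested, 6.69% fell and 4.5% rose. Nptxr, the neuronal pentraxin receptor that gathers AMPA receptors, went from 1417 ± 168 to 867 ± 84.6 CPM (-0.71, SE 0.081, edgeR adjusted p = 0.000203). The others were Nptx2 (-0.48, adjusted p = 0.0079), the activity-induced Arc (-0.4, adjusted p = 0.0389) and Dlg4, the PSD-95 scaffold (-0.18, adjusted p = 0.0269).

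Animal names carry prefixes whose meaning the labels do not state, and these lie unevenly over the genotypes. The prefix RFckQ stands on 4 wild types and a lone Q140 animal, and RFQ on 3 Q140 animals and a lone wild type. The remaining wild type has FMQ, and the remaining 2 Q140 animals have no prefix. Within RFckQ, Gsg1l was 130 to 154 CPM in wild types and 85.4 CPM in the Q140 animal. Within RFQ it was 133 CPM in the wild type and 73.5 to 97.9 CPM in Q140 animals. Gria3 was 236 to 266 against 225 CPM within RFckQ and 308 against 186 to 245 CPM within RFQ. Cacng3 was 93.5 to 121 against 88.0 CPM and 117 against 77.6 to 102 CPM. All 3 were therefore lower in Q140 within each prefix. With the prefix as a term over those 9 animals, Gsg1l passed (-0.7, edgeR adjusted p = 0.0209), and Gria3 (-0.38, adjusted p = 0.172) and Cacng3 (-0.41, adjusted p = 0.131) kept their size and did not pass.

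Genes whose levels followed Gsg1l over the 12 animals were ranked by Pearson's r on log2 CPM, as a description. The highest were Tsnax (r = 0.978, Spearman's rho 0.951), Rasgrf2 (0.972 and 0.888), Unc13b (0.971 and 0.902), Htt (0.97 and 0.867) and Nptxr (0.97 and 0.93). All 5 also fell in Q140 animals, so the contrast of the groups is part of that likeness. Among the other 9 genes, r with Gsg1l was 0.853 for Gria3, 0.851 for Cacng3 and 0.743 for Gria4. Their ranks among the genes tested were 367, 374 and 1115. After removing genotype and sex, the highest were Dsc3 (0.923), Ackr2 (0.914), Gm37599 (0.909), Tshz3 (0.908) and Osbpl10 (0.896), and of the other 9 genes Gria4 was at 0.667, Cacng3 at 0.593, Gria3 at 0.452 and Shisa9 at -0.742.

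Gsg1l and Cacng3 lie 3.11 Mb apart on chromosome 7. Of 53 tested genes within 1 Mb of Gsg1l, 3 fell and 0 rose (D430042O09Rik, Gm42742 and Gm31749). The share that fell there is near that over all genes tested, of which 6.69% fell and 4.5% rose. Of 21 tested genes near Cacng3, Chp2 and Prkcb passed, 1 in each direction, and of 4 near Gria3, Stag2 rose. In the GENCODE annotation no other gene overlaps the exons of Gsg1l or Cacng3. Cnih2 overlaps Yif1a on the opposite strand over 14 exon bases, 1.02% of its exon length, and Gria2, Gria3, Gria4 and Cacng8 contain only short same-strand microRNA models.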

How the data were processed

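RNA was extracted with a Qiagen RNeasy kit and libraries followed the Illumina TruSeq stranded protocol, per the labels. The deposited counts are raw whole reads per gene. Per the submitters' processing notes the tools were STAR 2.7.5c, SAMtools 1.10 and HTSeq 0.12.3, with GRCm38 and mm10 as builds. Whether HTSeq used strand, and with which annotation, is not given in the sources used here, and reads from an antisense gene may be included. The deposited FPKM values were made by the authors from these counts and carry no composition correction. In 15054 of 15054 genes with at least 20 reads in every animal, the gene length they imply varied by under 0.1% between animals.

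Counts were filtered by edgeR's default rule by genotype, normalized by TMM and tested with edgeR 4.0.16 in R 4.3.3 over all genes. SEs come from the F statistic. Comparisons within a sex used 4 groups of genotype and sex. The fits were tested on simulated data. At an adjusted p under 0.05, the genotype fit recovered 29.9% of genes changed 1.25-fold and 77.6% of those changed 1.5-fold. Within females and males, 7.46% and 17.9% of genes changed 1.25-fold were recovered. Changes of that size can therefore go uncalled. Alternatives used limma 3.58.1, DESeq2 1.42.0 and sva 3.50.0.

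The 10 genes and all 17 lists were chosen with earlier results of these data known; the result of 1 list is not reported here. Named genes were the 10, up to 5 listed genes that passed per list, Htt, and the 5 most like Gsg1l on each scale; Cacng2 and Cacng7 are named for their levels, and neighbouring or overlapping genes for their position. Shares of core subunits were computed from FPKM and, as an alternative, from CPM. Positions come from GENCODE M21 on GRCm38.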

Additional observations from a re-analysis of the deposited data

How the results depend on the processing

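The count of 3 lower genes among the 10 was within 1.5 times in 25 of 28 alternatives. It was 1 with the name prefix as a term, 0 with the animal number as a block over 5 animals, and 1 with only the animals that have a prefix, the last chosen after seeing the data. Each of these uses fewer animals. Gria3 passed in 25 of 28 and Cacng3 in 24 of 28. With only prefixed animals their adjusted p was 0.0746 and 0.0852, and under the block 0.655 and 0.562. In females the count of 2 was 4 with no filter on low counts and ranged from 1 to 3 on leaving out each animal. In males the count of 1 was 2 with no filter, 2 by DESeq2 and ranged from 1 to 3 on leaving out each animal. Values that turned sign were all near 0 or uncalled. Gria1 was -0.0067 by limma voom and ran from -0.02 to 0.02 over the animals left out. Cnih2 was 0.02 by total counts alone, 0.02 on log2 FPKM with a pseudocount of 0.1 and of 1, 0.04 with the excitatory covariate, 0.0046 with a surrogate variable and -0.07 to 0.03 over the animals left out. Cnih3 was -0.33 with the neuronal covariate and -0.08 to 0.16 over the animals left out. Cacng8 was 0.00054 by total counts alone, 0.00046 and 0.00042 on log2 FPKM and 0.0064 with the excitatory covariate. Where not stated, the cause was not tested. Over all genes, 1185 fell and 797 rose. With total counts alone the split was 822 and 1624, on log2 FPKM 751 and 1570 or 743 and 1568, with the prefix term 63 and 18, under the block 0 and 1, with the excitatory covariate 671 and 286, with the neuronal covariate 437 and 189, and with only prefixed animals 474 and 229. Leaving out an animal gave 727 to 1430 lower and 412 to 1074 higher. No paired analysis was possible because the labels give no replicate numbers, so that all 12 animals could not be matched between genotypes. A block by the animal number could be fitted on 5 animals, and under it Gsg1l was at -0.72 with an adjusted p of 0.334.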
